A study of Mus musculus with 15 samples.

Results

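The WNT system of the inflamed mouse joint was described through its ligands, receptors and inhibitors: every gene whose array symbol begins with Wnt, Fzd, Sfrp, Dkk or Rspo followed by a digit, and the listed genes Frzb, Wif1, Kremen1, Kremen2, Porcn, Wls, Lrp5, Lrp6, Lgr4, Lgr5, Lgr6, Ctnnb1, Tcf4, Tcf7l2, Lef1, Axin1, Axin2, Apc and Gsk3b. This gave 61 of the 19938 genes measured, 1 probe set being taken for each. They were 19 WNT ligands, 2 genes of ligand release, 10 frizzled receptors, 2 LRP co-receptors, 4 R-spondins, 3 R-spondin receptors, 12 secreted inhibitors or their receptors and 8 intracellular genes. The symbol pattern also took in 1 non-coding gene, Fzd10os, which lies antisense to Fzd10. Tcf4 on this array is transcription factor 4, an E protein, and not the WNT-responsive factor often called TCF-4, which is Tcf7l2.

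WNT ligands are secreted, lipid-modified proteins that bind frizzled receptors together with the LRP co-receptors, and in the canonical branch this stops the destruction of beta-catenin, which then acts with TCF/LEF factors on target genes. Secreted frizzled-related proteins and WIF1 bind the ligands, while the dickkopf proteins and sclerostin bind the co-receptors. R-spondins, through the LGR receptors, raise the number of frizzled receptors at the cell surface. In bone the pathway is known for driving osteoblast formation, and its inhibitors are known for holding new bone back.

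The joints came from male DBA/1JBom mice. Arthritis was induced by an intradermal injection of 100 μl of chicken collagen type II at 2 mg/ml in complete Freund's adjuvant at 0.5 mg/ml on day 1, with a boost of the collagen in incomplete Freund's adjuvant on day 21. Each array held RNA of 1 tarsal joint. Joints with a clinical score of 3 were taken at day 0–3 (animals 16, 18 and 57), week 1–2 (animals 33, 43 and 52) and week 3–4 (animals 54, 29 and 60) after onset. Joints of the declining phase (decline 15, 21 and 10) had held that score for weeks before it fell. The 3 control joints came from mice that the labels call not induced, and whether they had received adjuvant was not settled. The array of animal 57 failed the study's quality control, so 14 arrays were used and day 0–3 rested on 2. Skin, fur and the muscle that could be seen had been dissected away, and bone, cartilage, tendon and synovium were kept. In such mixed tissue fewer cells of a type and less RNA per cell cannot be told apart.

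Levels are given as log2 expression values, and a gene is called where the limma adjusted p over all genes was under 0.05. The arrays differed in range: the SD over genes was 1.22 to 1.46 in controls and 1.28 to 1.59 in decline, whereas it lay between 1.48 and 1.65 on the 8 arrays of score 3. Marker genes of tissues differed as well, those of the dissected muscle included. At day 0–3 the 9 skeletal muscle markers averaged 8.78 and 8.98 against 11 to 11.73 in controls (8 called lower), and the 6 macrophage markers 8.61 and 8.91 against 7.08 to 7.64 (4 called higher). Osteoblast markers averaged 8.70 and 8.87 against 8.33 to 8.83, and cartilage markers 7.01 and 7.24 against 7.45 to 7.70, or 6.92 and 7.18 against 6.82 to 7.19 without Chad. The part of array range and of tissue content in the WNT results was not tested. All phases were compared with the same 3 controls, so the comparisons with control share their error.

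Of the 61 genes, 10 were called at day 0–3 against control (16.4%), where 7.82% of all genes were called. Of these, 4 were higher and 6 lower, beside 4.46% and 3.36% of all genes. In week 1–2 there were 6 (9.84%), close to the 10.1% of all genes, with 4 higher and 2 lower beside 5.41% and 4.64%. In week 3–4 there was 1 (1.64%), close to 1.55%. In decline no member was called by limma in the fit of 14 arrays or of the 2 groups alone, as for all genes (0%). An unadjusted p under 0.05 was reached by 21 members (34.4%, against 26.1% of all genes) at day 0–3, by 24 (39.3%, against 29.9%) in week 1–2, by 13 (21.3%, against 23.9%) in week 3–4 and by 4 (6.56%, against 12%) in decline. The highest group mean lay in the controls for 30 of the 61 genes. The share of all genes with their highest mean in controls was not counted, so nothing is read from this. The median log2 change of the members from control was -0.20 at day 0–3, -0.12 in week 1–2, -0.08 in week 3–4 and -0.05 in decline, beside -0.12, -0.13, -0.09 and -0.05 over all genes.

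**Figure D1:**
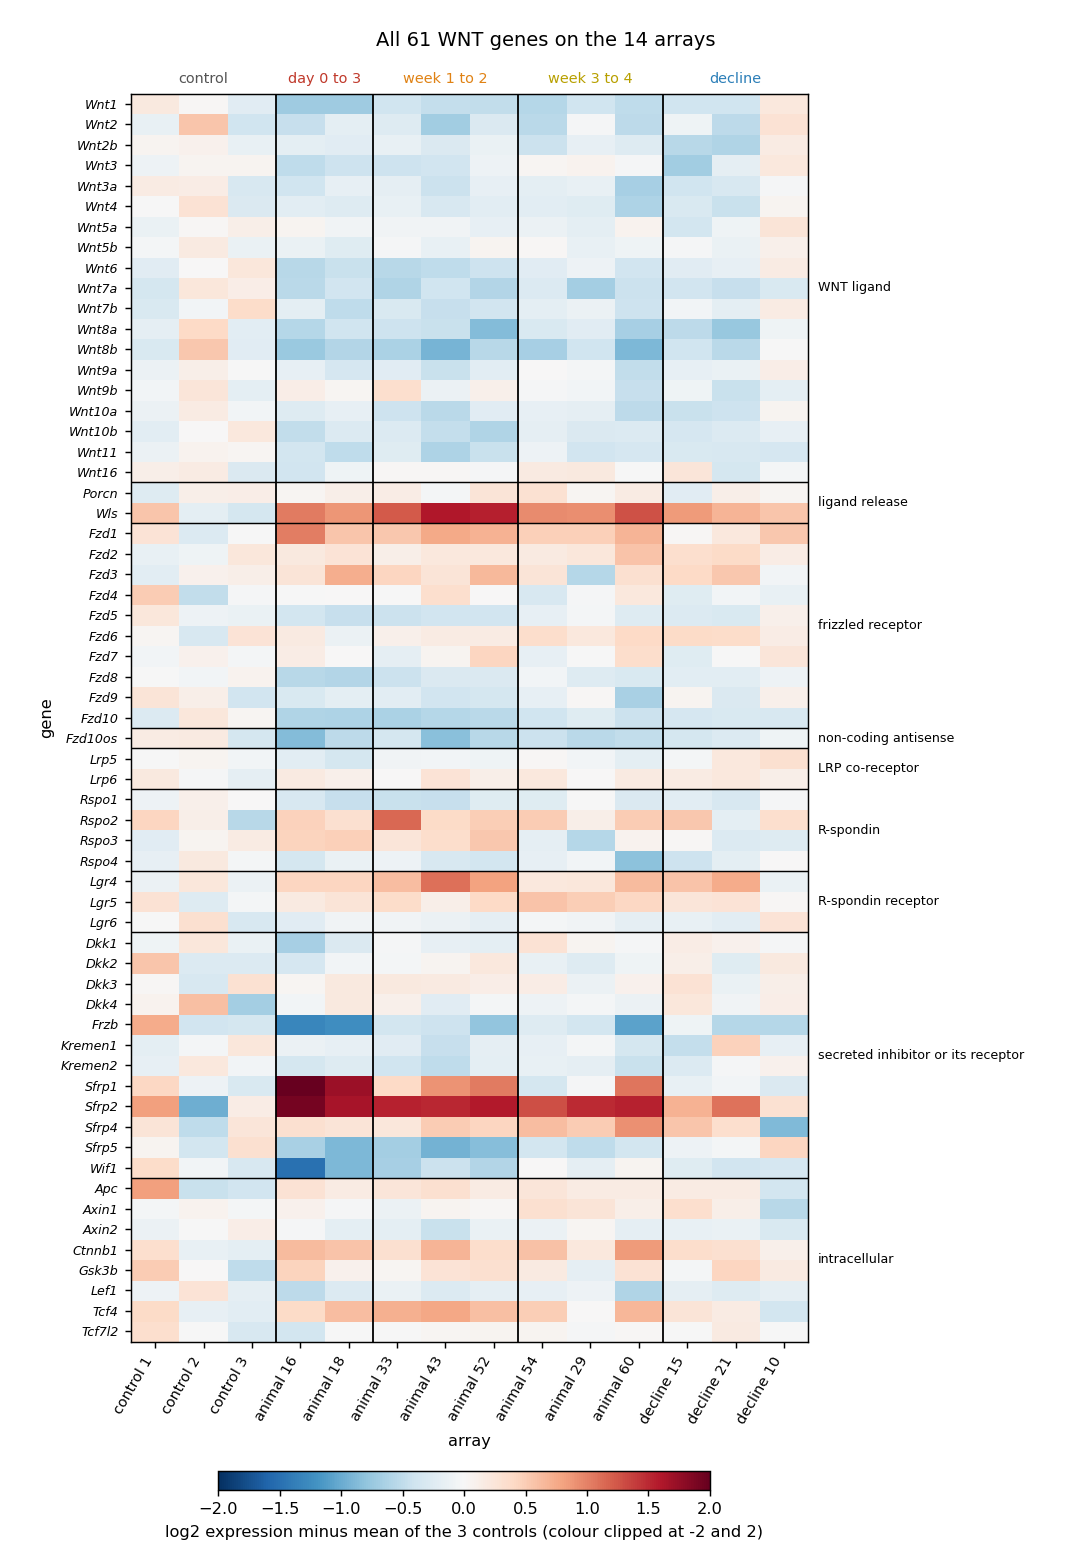
Log2 expression of all 61 WNT genes (rows, by family) on the 14 arrays (columns, by group), as the difference from the mean of the 3 controls; colours are clipped at -2 and 2. Sfrp1, Sfrp2 and Wls stand out above control at day 0–3, where Frzb and Wif1 lie below, while most rows of the WNT ligands are pale blue in the arthritic joints.

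The 12 secreted inhibitors or their receptors held 5 of the 10 genes called at day 0–3, with 2 higher and 3 lower. Over all genes 7.82% were called there. Sfrp1 and Sfrp2, which encode frizzled-related proteins that take up WNT ligands, rose 3.83-fold and 3.44-fold. Wif1, Frzb and Sfrp5 fell by 1.19, 1.27 and 0.77 on the log2 scale. Frizzled-related genes were thus called in both directions in the same joints.

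Sfrp1 had log2 values of 8.73 and 8.29 on the arrays of day 0–3, against 6.99, 6.46 and 6.26 in controls. Both arthritic joints lay above every control. In week 1–2 the values were 6.97, 7.47 and 7.60, in week 3–4 they were 6.22, 6.55 and 7.64, and in decline 6.42, 6.52 and 6.28. The groups of week 1–2, week 3–4 and decline all overlapped with the controls. The log2 change from control was 1.94 (SE 0.35, adjusted p = 0.00677, limma) at day 0–3. It was 0.78 (SE 0.31, adjusted p = 0.118) in week 1–2 and was not called. Without animal 16 the log2 change at day 0–3 was 1.72 and the call was lost (adjusted p = 0.111).

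Sfrp2 was called in both early groups. Its log2 values were 10.60 and 10.33 at day 0–3, 10.22, 10.19 and 10.26 in week 1–2, and 9.97, 10.17 and 10.22 in week 3–4, against 9.51, 7.70 and 8.83 in controls. All 8 joints with a clinical score of 3 lay above every control. The controls were the most scattered group, with an SD of 0.91 against 0.04 in week 1–2. Sfrp2 rose by 1.78 (SE 0.38, adjusted p = 0.0143) at day 0–3 and 1.54 (SE 0.34, adjusted p = 0.0149) in week 1–2 on the log2 scale. In week 3–4 the log2 change of 1.44 (SE 0.34) had an adjusted p of 0.0513. In decline the values of 9.37, 9.77 and 8.99 overlapped with the controls. Over the 14 arrays Sfrp2 followed the array range (r = 0.87 with the SD over genes), and its part in the change was not tested. With every array set to 1 median and 1 SD the log2 change at day 0–3 was 1.50 (adjusted p = 0.0177). The call at day 0–3 was lost without animal 16 (adjusted p = 0.156) or 18 (adjusted p = 0.0916), and that of week 1–2 without animal 43 (adjusted p = 0.0615) or 52 (adjusted p = 0.0602).

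Wif1, a secreted protein that binds WNT ligands directly, had log2 values of 6.34 and 6.94 at day 0–3 against 8.21, 7.78 and 7.52 in controls. The values were 7.17, 7.40 and 7.25 in week 1–2, then 7.85, 7.65 and 7.89 in week 3–4. The joints of both early groups lay below every control, and those of week 3–4 lay among the controls. Wif1 fell by 1.19 on the log2 scale at day 0–3 (SE 0.21, adjusted p = 0.00638, limma). Without animal 16 the log2 change was -0.89 and was not called (adjusted p = 0.128). In week 1–2 the log2 change of -0.56 was not called on the deposited values (adjusted p = 0.0753), whereas after scaling to 1 median and 1 SD it was -0.67 and called (adjusted p = 0.0427).

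Frzb, a frizzled-related protein known from articular cartilage, had log2 values of 5.60 and 5.65 at day 0–3 against 7.64, 6.51 and 6.55 in controls. Both joints lay below every control and below every joint of the later groups. The log2 change was -1.27 (SE 0.33, adjusted p = 0.0325), and control 1 stood above the other controls. Without animal 16 or 18 the change was not called (adjusted p = 0.220 and 0.170). Of 6 cartilage markers, Chad (chondroadherin) was called at day 0–3, with a log2 change of -2.97. Acan and Hapln1 had changes of 0.54 and 0.56 that were not called. The remaining markers had lower log2 means at day 0–3 than in controls. Col2a1 averaged 7.037 against 7.457, Matn3 5.883 against 5.998 and Col9a1 6.855 against 6.971. Over the 14 arrays Frzb and Wif1 had correlations of 0.57 and 0.69 with the cartilage mean, but of 0.16 and 0.18 with the mean of the 5 markers other than Chad. Their correlations with the muscle mean were 0.64 and 0.63, and with the adipocyte mean 0.72 and 0.69. All are given as a description over arrays that share their groups.

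Sfrp5, a frizzled-related protein also known from adipose tissue, had log2 values of 5.87 and 5.63 at day 0–3 and 5.84, 5.58 and 5.66 in week 1–2, against 6.57, 6.15 and 6.84 in controls. None of these 5 joints reached the lowest control. The gene fell by 0.77 (SE 0.21, adjusted p = 0.0431) at day 0–3 and by 0.83 (SE 0.19, adjusted p = 0.0187) in week 1–2 on the log2 scale. Adipocyte markers lay at 7.53 to 7.65 at day 0–3 and 7.66 to 7.84 in week 1–2 against 8.43 to 8.51 in controls, with 4 and 3 of 6 called lower, and their part in the fall of Sfrp5 was not tested. After scaling to 1 median and 1 SD the change at day 0–3 was not called (adjusted p = 0.0919). With a second quantile normalization Sfrp5 was called neither at day 0–3 nor in week 1–2. On the deposited values its day 0–3 call held in 4 of 14 fits with 1 array left out, with an adjusted p of up to 0.256, and its week 1–2 call was lost without animal 43, animal 52 or control 3 (adjusted p of up to 0.0910).

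The other inhibitors were not called in any comparison. Sfrp4, a frizzled-related gene of connective tissue, had log2 values of 11.08 and 11.02 at day 0–3 and 11.38, 11.28 and 11.67 in week 3–4 against 11.03, 10.25 and 11.01 in controls. Its log2 change of 0.29 at day 0–3 became -0.28 after scaling to 1 median and 1 SD, so no direction is given. Dkk1, which blocks the LRP co-receptors, had log2 values of 6.64 and 7.01 at day 0–3 against 7.21, 7.52 and 7.16 in controls. Animal 16 lay well below the lowest control and animal 18 narrowly so, and the log2 change of -0.47 (SE 0.17) was not called (adjusted p = 0.109). Dkk2, Dkk3, Dkk4, Kremen1 and Kremen2 had log2 changes between -0.30 and 0.12 at that time.

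**Figure D2:**
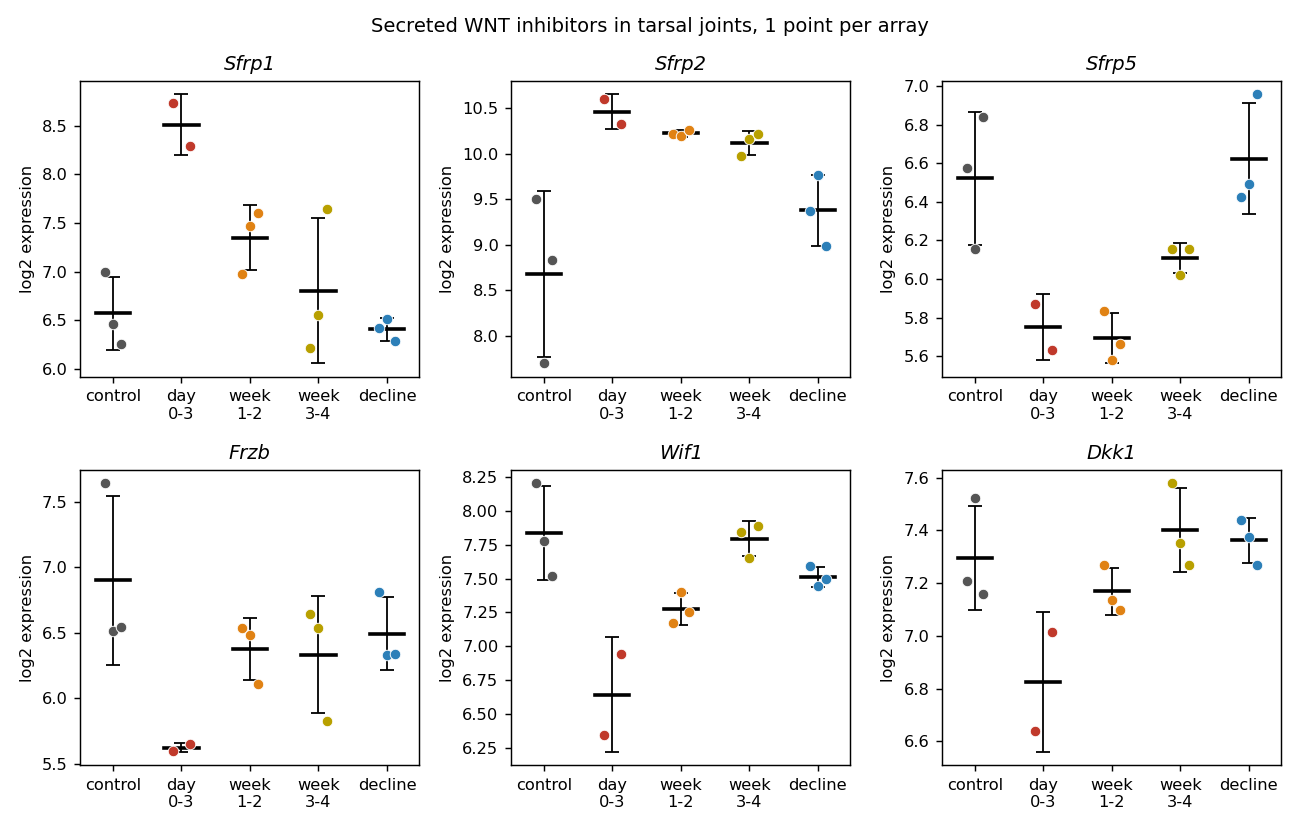
Log2 expression of 6 secreted WNT inhibitors in the 5 groups; each point is 1 array, thick lines are group means and bars are 1 SD (n = 2 at day 0–3, otherwise n = 3), and each panel has its own axis that does not start at 0. Sfrp1 and Sfrp2 are above every control at day 0–3, and Sfrp5, Frzb, Wif1 and Dkk1 are below every control.

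Upstream sequences are shown for 4 genes called at day 0–3, which rose (Sfrp2, Wls) or fell (Wif1, Frzb) together, and for Dkk1, an inhibitor that the study discusses. Each is the 250 bases before the RefSeq start of the gene in GRCm38.p6, read 5′ to 3′ on the strand of the gene, with matches to searched motifs in capitals. The motifs, searched on both strands, were the TCF/LEF core CTTTGAA or CTTTGAT, the AP-1 site TGACTCA and the GC box GGGCGG.
Sfrp2, chr3:83766071-83766320, plus strand: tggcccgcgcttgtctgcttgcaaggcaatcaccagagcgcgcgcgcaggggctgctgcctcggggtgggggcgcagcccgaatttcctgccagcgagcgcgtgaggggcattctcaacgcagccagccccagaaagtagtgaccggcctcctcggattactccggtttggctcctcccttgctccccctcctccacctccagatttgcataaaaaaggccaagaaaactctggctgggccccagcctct
Wls, chr3:159839400-159839649, plus strand: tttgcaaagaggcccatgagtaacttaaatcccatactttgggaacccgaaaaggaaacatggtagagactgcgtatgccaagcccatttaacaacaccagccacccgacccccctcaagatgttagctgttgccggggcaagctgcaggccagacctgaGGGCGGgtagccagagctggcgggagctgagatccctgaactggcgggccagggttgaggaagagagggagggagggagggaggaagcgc
Wif1, chr10:121033754-121034003, plus strand: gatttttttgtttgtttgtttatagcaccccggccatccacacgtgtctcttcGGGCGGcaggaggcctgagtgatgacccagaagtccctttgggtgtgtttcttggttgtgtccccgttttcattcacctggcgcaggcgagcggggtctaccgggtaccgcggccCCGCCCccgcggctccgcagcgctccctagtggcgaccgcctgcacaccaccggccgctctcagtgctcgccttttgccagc
Frzb, chr2:80447397-80447646, minus strand: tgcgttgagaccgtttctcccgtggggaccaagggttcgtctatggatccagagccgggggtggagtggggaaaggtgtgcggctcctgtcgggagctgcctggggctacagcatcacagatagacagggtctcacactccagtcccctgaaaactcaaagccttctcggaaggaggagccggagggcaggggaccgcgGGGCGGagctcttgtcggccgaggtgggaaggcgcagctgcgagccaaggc
Dkk1, chr19:30549497-30549746, minus strand: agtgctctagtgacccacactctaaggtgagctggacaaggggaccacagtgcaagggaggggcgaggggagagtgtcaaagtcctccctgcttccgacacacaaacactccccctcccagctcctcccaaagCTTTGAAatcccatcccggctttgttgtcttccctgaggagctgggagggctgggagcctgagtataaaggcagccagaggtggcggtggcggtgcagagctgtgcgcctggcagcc
The capitals mark GC boxes in Wls, Wif1 and Frzb and a TCF/LEF core in Dkk1 that begins at position -117 from the start. Sfrp2 held no match to these letters in the window. Sfrp1 is named here without a sequence. Of 46 windows of 38 members in the RefSeq table, 33 held a GC box (71.7%, against 32.7% of 32851 windows of all genes). A TCF/LEF core was found in 3 (6.52%, against 7.48%), those of Dkk1, Wnt11 and Wnt5b. An AP-1 site was found in 1, that of Wnt5b (2.17%, against 4.46%). A match is a description of the letters and not a bound site.

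Of the genes of ligand release, Wls was called in all 3 phases of score 3. It encodes the carrier that brings WNT ligands to the cell surface. Its log2 values were 7.74 and 7.58 at day 0–3, 7.93, 8.31 and 8.26 in week 1–2, 7.65, 7.63 and 7.97 in week 3–4, and 7.55, 7.38 and 7.25 in decline, against 7.25, 6.50 and 6.35 in controls. All 11 arthritic joints lay above every control, although decline 10 did so only narrowly. Wls rose 1.94-fold (adjusted p = 0.0291) at day 0–3, 2.76-fold (adjusted p = 0.00265) in week 1–2 and 2.07-fold (adjusted p = 0.0346) in week 3–4. In decline the log2 change was 0.69 (SE 0.21) and was not called (adjusted p = 0.250). Porcn, the enzyme that adds the lipid to WNT ligands, had log2 changes of -0.02 to 0.17 over the 4 phases and was never called. The rise in week 1–2 stayed called with each of the 14 arrays left out in turn (adjusted p of up to 0.0198). At day 0–3 it was lost without animal 16, animal 18, control 2 or control 3 (adjusted p of up to 0.239), and in week 3–4 it held in 5 of 14 such fits (adjusted p of up to 0.175). Over the 14 arrays Wls had a correlation of 0.76 with the array SD. With marker means it had 0.90 for osteoclast, 0.83 for tendon, 0.82 for endothelium, 0.77 for macrophage, 0.77 for osteoblast and -0.82 for adipocyte. The part of array range or of any tissue in the rise was not tested.

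No WNT ligand was called higher in any phase against control. Of the 19, 1 was called lower, Wnt1 at day 0–3, where 7.82% of all genes were called. The log2 changes of the 19 ligands ran from -0.71 to 0.09 at day 0–3, with a median of -0.33 beside -0.12 for all genes. They lay below 0 for 18 of 19 at day 0–3, 17 in week 1–2, 17 in week 3–4 and 19 in decline. After scaling to 1 median and 1 SD the counts were 17, 16, 17 and 17 and the day 0–3 median was -0.24. The share of all genes below 0 was not counted, but their median on the deposited values was below 0 in each phase. As all phases share the 3 controls, these counts are not separate observations. At day 0–3, 12 of the 19 lay wholly below the controls, where 27.8% of all genes did so. Group means of 12 ligands stayed under the array median of 6.33 in all groups.

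Wnt1, the founding ligand of the family and known for its part in bone formation, had log2 values of 4.64 and 4.64 at day 0–3 against 5.54, 5.38 and 5.13 in controls. All joints but decline 10 lay below every control. The log2 change of -0.71 (SE 0.19) was called (adjusted p = 0.0420). It was not called after scaling to 1 median and 1 SD (adjusted p = 0.123), nor in 10 of 14 fits with 1 array left out (adjusted p of up to 0.251), and Wnt1 had a correlation of -0.78 with the array SD. Wnt8b had values of 5.15 and 5.30 at day 0–3 and 5.25, 4.96 and 5.32 in week 1–2 against 5.58, 6.42 and 5.66 in controls. Its log2 changes of -0.66, -0.71 and -0.65 in the phases of score 3 were not called (adjusted p = 0.0632 in week 1–2), and its correlation with the array SD was -0.96. Wnt7a and Wnt8a had the most negative log2 changes among the ligands in decline, at -0.38 and -0.46, with adjusted p of 0.404 and 0.432. Wnt4, the 1 member with 2 probe sets, had day 0–3 changes of -0.23 and -0.04 on them. Wnt5a, a ligand of the non-canonical branch, had log2 changes between -0.10 and -0.01 over the phases, and its day 0–3 value became 0.07 after scaling.

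**Figure D3:**
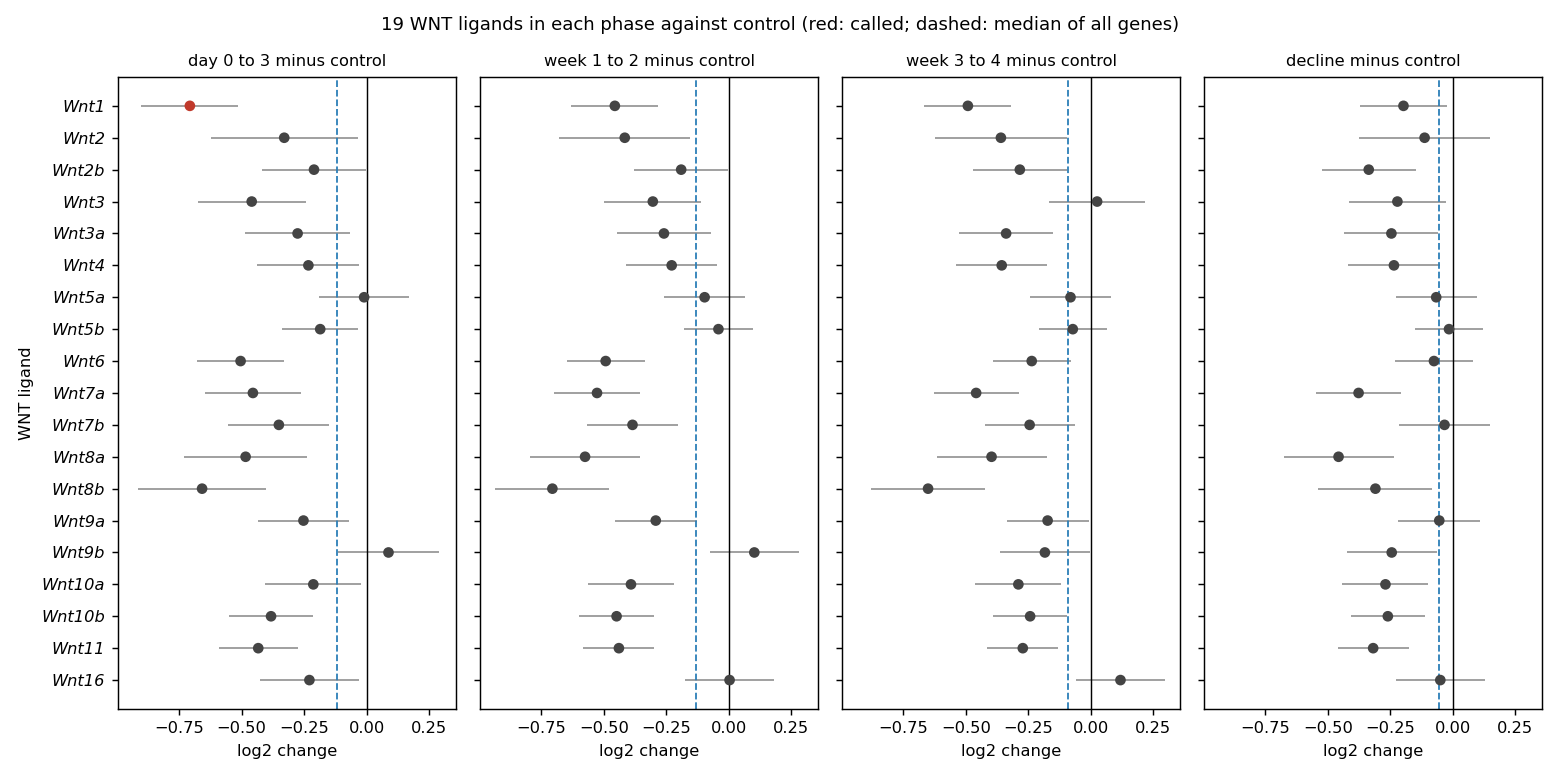
Log2 change of the 19 WNT ligands from control in each of the 4 phases (points, with bars of 1 SE); red marks a called gene, the solid line is 0 and the dashed line is the median of all genes. Most points lie left of the dashed line, with only Wnt1 called, and the bars of many reach it.

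Among the 10 frizzled receptors 3 were called at day 0–3, Fzd1 higher and Fzd8 and Fzd10 lower, beside 7.82% of all genes. Fzd1 had log2 values of 7.85 and 7.39 at day 0–3, 7.38, 7.59 and 7.52 in week 1–2 and 7.31, 7.31 and 7.50 in week 3–4, against 7.11, 6.55 and 6.83 in controls. All 8 joints of score 3 lay above every control. It rose 1.73-fold at day 0–3 (adjusted p = 0.0357) and 1.59-fold in week 1–2 (adjusted p = 0.0401). The log2 change of 0.55 in week 3–4 was not called. Fzd8 had values of 5.40 and 5.36 at day 0–3 against 5.94, 5.90 and 6.02 in controls, with no overlap and a log2 change of -0.58 (adjusted p = 0.0269). Fzd10 had values of 5.86 and 5.83 at day 0–3 and 5.82, 5.89 and 5.92 in week 1–2 against 6.18, 6.69 and 6.49 in controls. It fell by 0.61 (adjusted p = 0.0357) and 0.58 (adjusted p = 0.0249) on the log2 scale. Its antisense gene Fzd10os had log2 changes of -0.69 and -0.58 at the same times and was not called. After scaling to 1 median and 1 SD neither Fzd8 nor Fzd10 was called at day 0–3 (adjusted p = 0.0905 and 0.0561), while Fzd1 was (adjusted p = 0.0421). With a second quantile normalization Fzd1, Fzd8 and Fzd10 all lost their day 0–3 calls, and Fzd1 lost that of week 1–2 too. With 1 array left out in turn, the day 0–3 calls of Fzd1, Fzd8 and Fzd10 held in 7, 11 and 6 of 14 fits, and those of Fzd1 and Fzd10 in week 1–2 in 7 and 9. The other 7 frizzled genes had log2 changes from -0.42 for Fzd5 to 0.50 for Fzd3 at day 0–3.

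Lgr4, a receptor for R-spondins, was called in week 1–2 and in no other comparison. Its log2 values there were 6.17, 6.65 and 6.35 against 5.44, 5.78 and 5.44 in controls. All 3 joints lay above the controls, and the rise was 1.79-fold (adjusted p = 0.0325). It was lost without animal 43, animal 52, control 1 or control 3 (adjusted p of up to 0.149). At day 0–3 both joints read 5.99 and the log2 change of 0.43 was not called. In decline the values of 6.12, 6.30 and 5.42 straddled the controls. Lgr5 and Lgr6 were not called, nor were the 4 R-spondins. Rspo3, an R-spondin of connective tissue, had values of 6.89, 6.99 and 7.18 in week 1–2 and 6.47, 6.08 and 6.72 in week 3–4. The 2 groups did not overlap, but the log2 change of -0.60 (SE 0.18) between them had an adjusted p of 0.770. The co-receptors Lrp5 and Lrp6 had log2 changes from -0.28 to 0.17 over the 4 phases.

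**Figure D4:**
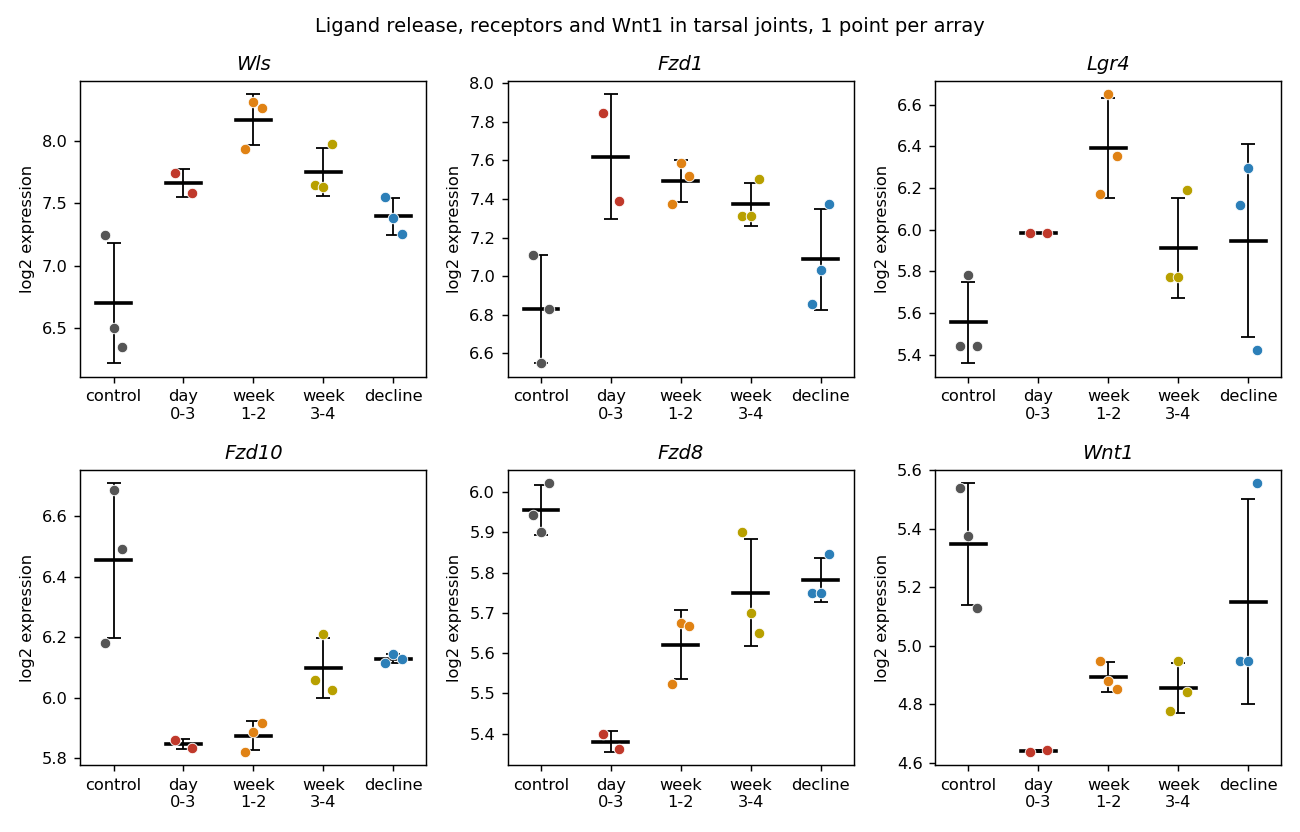
Log2 expression of Wls, 4 receptors and Wnt1 in the 5 groups; each point is 1 array, thick lines are group means and bars are 1 SD (n = 2 at day 0–3, otherwise n = 3), and each panel has its own axis that does not start at 0. Wls is above every control on all 11 arthritic arrays, and Fzd8, Fzd10 and Wnt1 are lowest at day 0–3 or week 1–2.

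None of the 8 intracellular genes was called against control in any phase by limma, beside 7.82%, 10.1%, 1.55% and 0% of all genes. From day 0–3 to decline 1, 2, 1 and 0 had an unadjusted p under 0.05. Over all genes the shares were 26.1%, 29.9%, 23.9% and 12%. Ctnnb1, which encodes beta-catenin, had log2 values of 9.05 and 8.99 at day 0–3 against 8.75, 8.28 and 8.23 in controls. Both joints lay above the controls, and the log2 change of 0.60 had an adjusted p of 0.0996. Axin2, a feedback inhibitor and widely used readout of canonical signalling, had log2 changes from -0.25 to -0.08 over the phases. Tcf4, here the E protein, had values of 8.59, 8.66 and 8.48 in week 1–2 against 8.26, 7.72 and 7.67 in controls, and its log2 change of 0.69 had an adjusted p of 0.0600. Its day 0–3 change was 0.51 and turned to -0.11 with animal 57 added. Tcf7l2 and Lef1, the TCF/LEF factors of the set, had day 0–3 changes of -0.18 and -0.40, and Apc, Axin1 and Gsk3b, of the complex that destroys beta-catenin, changes of 0.22, 0.03 and 0.27.

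Other genes of the pathway were read from 3 lists. Of 22 further receptors and secreted or membrane regulators, 3 rose and 1 fell at day 0–3, and 4 rose and 1 fell in week 1–2. The called share was 18.2% and 22.7%, against 7.82% and 10.1% of all genes. Cthrc1, a secreted protein that favours the non-canonical branch, had log2 values of 9.87 and 10.21 at day 0–3 and 10.30, 10.46 and 10.61 in week 1–2. Controls read 9.02, 7.32 and 7.45. Cthrc1 rose by 2.11 (adjusted p = 0.0141) and 2.53 (adjusted p = 0.00332) on the log2 scale. Tmem59, a membrane protein that promotes the clustering of WNT receptors, rose by 1.57 (adjusted p = 0.00584) and 1.52 (adjusted p = 0.00374), and by 1.31 in week 3–4 (adjusted p = 0.0287), a call that held in 7 of 14 fits with 1 array left out. Ryk, a WNT co-receptor, rose by 0.82, 0.72 and 1.02 from day 0–3 to week 3–4, with adjusted p of 0.0479, 0.0443 and 0.0346. These 3 calls held in 4, 5 and 4 of 14 fits with 1 array left out, and the first 2 were also lost with a second quantile normalization, the first with 1 median and 1 SD for every array too. Igfbp4, a secreted binding protein, rose by 0.96 in week 1–2 (adjusted p = 0.0362). This call held in 7 of 14 such fits and was lost with a second quantile normalization and with 1 median and 1 SD for every array. Sost, the sclerostin gene of osteocytes, had values of 6.52 and 6.74 at day 0–3 against 7.57, 7.55 and 7.28 in controls and fell by 0.84 (adjusted p = 0.0307). The call was lost without animal 16, animal 18 or control 2, and the day 0–3 calls of Cthrc1 and Tmem59 without animal 16 or 18. Its log2 change of -0.53 in week 1–2 was not called (adjusted p = 0.0870).

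Of 40 genes of signal transduction and nuclear factors, 1 rose and 3 fell at day 0–3, and 2 rose and 2 fell in week 1–2. The called share of 10% in both phases was close to the 7.82% and 10.1% of all genes. Ndrg2, which has been described as an inhibitor of beta-catenin signalling and is abundant in muscle, had log2 values of 8.38 and 8.0 at day 0–3 against 10.39, 10.42 and 10.89 in controls. All 11 arthritic joints lay below every control, at 9.89 or less. It fell by 2.38 (adjusted p = 0.000533) at day 0–3, 1.63 (adjusted p = 0.00193) in week 1–2 and 1.40 (adjusted p = 0.0153) in week 3–4 on the log2 scale, and the last call was lost without animal 60. The muscle markers lay lower in the same joints, and their part in the fall of Ndrg2 was not tested. Hif1a, the hypoxia-inducible factor, rose by 1.98 (adjusted p = 0.00622) and 1.78 (adjusted p = 0.00586) at day 0–3 and week 1–2, and the first call was lost without animal 16 or 18. Daam2, a formin of the non-canonical branch, fell by 0.99 at day 0–3 (adjusted p = 0.0357). The call was lost without animal 16, 18, 43 or 52 or control 1 or 3, and with the arrays centred on their medians. Tnks2, a tankyrase that targets axin, had a log2 change of 1.00 there and was not called (adjusted p = 0.0813).

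Of 20 widely used targets of beta-catenin, 1 rose and 1 fell at day 0–3 and again in week 1–2. The called share of 10% was close to the 7.82% and 10.1% of all genes. Gja1, the gap junction protein of osteoblasts and fibroblasts, rose by 1.37 (adjusted p = 0.0280) and 1.46 (adjusted p = 0.0120). Sp5, a transcription factor directly induced by beta-catenin, fell by 0.85 (adjusted p = 0.0151) and 0.72 (adjusted p = 0.0175). Both day 0–3 calls were lost without animal 16 or 18, and that of Gja1 also without control 2. In week 1–2 both calls were lost without animal 43, and that of Sp5 also without animal 33 or control 2. Id2 and Twist1 had day 0–3 changes of 1.06 and 0.39 and were not called. The median of the 20 targets was 0.13 at day 0–3 beside -0.12 for all genes.

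Between phases, where the control means play no part, no member was called by limma in the 3 steps from day 0–3 onward, in the fit of 14 arrays or of the 2 groups alone. Of all genes, 0.00502%, 0.00502% and 0% were called in these steps. An unadjusted p under 0.05 was reached by 3, 4 and 3 members in turn, beside 1.79%, 4.98% and 6.13% of all genes. The largest differences of the first step were in Sfrp1 at -1.16, Frzb at 0.75 and Wif1 at 0.63, each with an adjusted p of 1. In the second step Sfrp1 had -0.54 and Wif1 0.52 (adjusted p = 0.9996 and 0.815), and in the third Sfrp2 had -0.74, Sfrp4 -0.68 and Sfrp5 0.52, each with an adjusted p of 0.787.

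Decline was then compared with the first 2 phases, as the mean of their group means. This called 2 of 61 members (3.28%), below the 4.75% of all genes, and 14 members (23%) had an unadjusted p under 0.05, against 19.8%. Sfrp1 was 2.87-fold lower in decline (log2 change -1.52, SE 0.28, adjusted p = 0.0124), and the 3 declining joints, at 6.28 to 6.52, lay below the 5 earlier ones, at 6.97 to 8.73. Sfrp5 was 1.87-fold higher (log2 change 0.90, SE 0.17, adjusted p = 0.0137), with declining joints at 6.43 to 6.96 above the earlier ones at 5.58 to 5.87. Sfrp2 had a log2 change of -0.97 and was not called (adjusted p = 0.0896). Epidermis markers averaged 9.87 to 10.75 in decline against 5.77 to 6.49 in the earlier joints, and 9 of 10 were called higher, although skin and fur had been removed at dissection. Adipocyte markers averaged 8.04 to 8.09 in decline against 7.53 to 7.84 in the earlier joints. Macrophage markers averaged 7.09 to 8.06 against 8.01 to 8.91. The part of these tissues in the changes of Sfrp1 and Sfrp5 was not tested. The array names also carried 1 letter code for all earlier joints and another for all declining joints. With that code as a block the log2 changes were -2.40 for Sfrp1 and 0.97 for Sfrp5. Neither gene was called (adjusted p = 0.384 for Sfrp1 and 0.649 for Sfrp5, limma), but 0 of all 19938 genes were called in that fit. Because the code divides the same joints as the comparison, the block cannot decide whether it had a part. The call of Sfrp1 was also lost without animal 16 (adjusted p = 0.0551) and that of Sfrp5 without animal 18 (adjusted p = 0.0634).

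**Figure D5:**
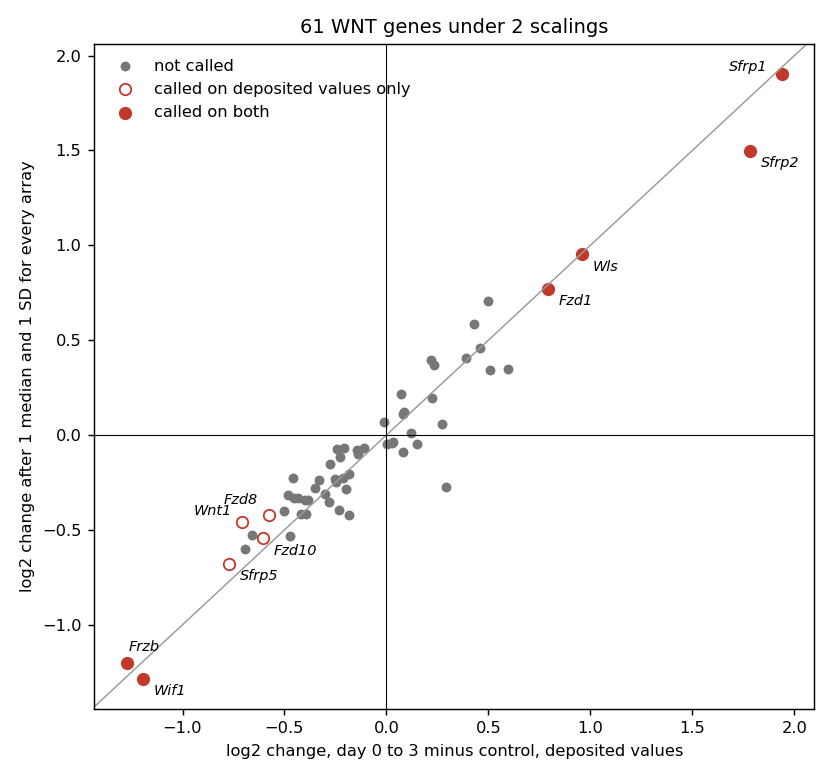
Log2 change of the 61 WNT genes at day 0–3 from control on the deposited values (horizontal) and after setting every array to 1 median and 1 SD (vertical), with the line of equality. Of the 10 genes called on the deposited values, Sfrp1, Sfrp2, Wls, Fzd1, Frzb and Wif1 were called on both, and Sfrp5, Wnt1, Fzd10 and Fzd8 on the deposited values only.

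The calls at day 0–3 depended on few arrays. With animal 57 added, Wif1 alone was called (adjusted p = 0.0393), beside an uncalled Sfrp1 at 1.04 (adjusted p = 0.589). That fit called 163 of all 19938 genes at day 0–3, against 1559 in the main fit. On that array Sfrp1 read 5.82, Sfrp2 7.25 and Wls 6.34. The SD over genes of the array, 1.08, was under that of all others, and its mean correlation with its own group was 0.779. Leaving out animal 16 or 18 left 1 array at day 0–3, so the calls of those fits are not counted here. Without control 1, 12 of the 61 genes were called at day 0–3, beside 2557 of all genes. With control 2 and decline 10 left out, the arrays of narrowest range, 8 of the 61 were called at day 0–3 and 5 in week 1–2. Of all genes, 2101 and 2383 were called there. Sfrp2 rose by 1.29 and 1.05 on the log2 scale in that fit.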

How the data were processed

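RNA of 15 tarsal joints, 1 array each, was read on Affymetrix Mouse Gene 1.0 ST arrays with 1 dye. The values deposited by the authors are log2 signals that they had made by RMA in affy under R 2.15, with background correction, quantile normalisation and median polish. The sources used here do not give whether 14 or 15 arrays were normalised at once.

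Probe sets naming 1 gene were kept (21789 of 35556), with the highest mean per gene, leaving 19938 genes. The 5 group means were fitted to 14 arrays in limma 3.58.1 (lmFit and eBayes, R 4.3.3) without covariates, with Benjamini-Hochberg adjustment over all genes. Each array is a separate animal, so p-values measure the spread between animals. The fit was tested on simulated data. Genes named with values are those called in any comparison, the 6 largest changes per phase, the 3 largest per step between phases, those the study discusses and up to 4 per pathway list, with a few others named after their values were seen. The members and lists were chosen with earlier results of these data known. Upstream windows came from a RefSeq table, and figures from matplotlib 3.10.9 under Python 3.11.15. The alternatives were all 15 arrays, each array left out, other tests, scalings, filters and probe set rules, array weights and the letter code as a block. Leaving out control 2 and decline 10, and the cartilage mean without Chad, were chosen after seeing the data. The number of arrays limits the precision.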

Additional observations from a re-analysis of the deposited data

Results flagged for a closer look

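Decline and the earlier phases (day 0–3 and week 1–2) differed by the test of that difference for Sfrp1 (log2 change -1.52) and Sfrp5 (log2 change 0.90). With a block for the letter in the array names neither was called by limma (adjusted p = 0.384 and 0.649). That fit, which left out the controls, called 0 of all 19938 genes, and the reason was not tested. The letter divides the same joints as the comparison, so the fit decides nothing here. The call was lost without animal 16 for Sfrp1 (log2 change -1.41) and without animal 18 for Sfrp5 (log2 change 0.84). Each of these fits left 1 array at day 0–3.

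The array of animal 57, which failed quality control and entered only the alternative with all 15 arrays, had 20 members above every control and 20 below every control. Of the 19 WNT ligands 11 were above every control there, whereas the 4 genes that rose at day 0–3 on the other arrays were not. The shares of all genes above or below every control on this array were not counted, so nothing is read from these counts.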

How the results depend on the processing

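No paired analysis was possible because the animal numbers are not shared between groups. The number of called members moved by over 1.5 times as follows. At day 0 to 3 it was 10, and 1 with all 15 arrays, 1 with limma on the 2 groups compared, 0 with the ANOVA of those groups, 5 after a second quantile normalisation, 6 with 1 median and 1 SD for every array and 4 at 2-fold with an unadjusted p under 0.05. Of all 19938 genes, the main fit called 1559 there. All 15 arrays gave 163, limma on the 2 groups 454 and the ANOVA 0. The second quantile normalisation gave 1442, and 1 median and 1 SD gave 1406. In week 1 to 2 the number of called members was 6, and 0, 2 and 0 in the first 3 of these alternatives and 2 at 2-fold. The first 3 called 106, 1164 and 10 of all genes there, against 2005 in the main fit. In week 3 to 4 the number of called members was 1, and 0 in the first 3, 2 with array weights, a second quantile normalisation, a filter on group means of 6, the mean of the probe sets or 2-fold, and 3 without control 2 and decline 10. The first 3 called 0, 2 and 0 of all genes there, against 309 in the main fit. Array weights called 331, the second quantile normalisation 450 and the mean of the probe sets 359. The filter called 403 of 13584 genes, and the fit without control 2 and decline 10 called 688. Between decline and week 0 to 2 the number of called members was 2. It was 0 with all 15 arrays, 4 with limma on the 2 groups, 1 with the ANOVA and 8 with array weights. These alternatives called 119, 958, 251 and 2746 of all genes there, against 947 in the main fit. Without control 2 and decline 10, 4 members and 868 of all genes were called, and at 2-fold 1 member passed. With the letter code as a block 0 members were called, as for all genes. From day 0 to 3 to week 1 to 2, 1 member (Sfrp1) passed at 2-fold, and from week 1 to 2 to week 3 to 4, 1 (Rspo3) with array weights. Leaving out each array in turn gave 0 to 12 at day 0 to 3, 1 to 13 in week 1 to 2, 0 to 5 in week 3 to 4 and 1 to 4 between decline and week 0 to 2, and 0 in the other 4 comparisons. The lowest count at day 0 to 3 came without animal 16, which left 1 array in that group. The 12 came without control 1, where 2557 of all genes were called. The 13 came without control 1 or decline 10, and the 1 without animal 43 or 52. In these 4 fits 3241, 3389, 417 and 519 of 19938 genes were called in week 1 to 2, against 2005 in the main fit. The cause was not tested. Changes that turned in direction, none of them called, include Tcf4 at day 0 to 3 with all 15 arrays (-0.11), and Sfrp4 (0.29 to -0.28) and Wnt5a (-0.01 to 0.07) at day 0 to 3 with 1 median and 1 SD for every array.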

Other observations

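Some deposited values recur exactly. For 28 of the 61 genes at least 2 of the 14 arrays hold the same value to 5 decimals. Apc reads 7.32 on 5 arrays, Tcf7l2 reads 8.53 on 5 and Wnt1 reads 4.95 on 4.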
